A study of Mus musculus with 25 samples.

Results

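The 10 genes described here write, remove or read N6-methyladenosine (m6A) in RNA, and their transcripts were measured in the gastrocnemius muscle of 25 male SAMP8 mice. The group holds the writers Mettl3, Mettl14, Wtap and Virma, the erasers Fto and Alkbh5, and the readers Ythdf1, Ythdf2, Ythdf3 and Ythdc1, and all 10 were among the 8829 genes of the muscle table. It was put together around Mettl3, which was chosen by its thymol-control difference in these same mice, where it had the 4th smallest p among the genes that were higher with thymol. For this reason the thymol and control values of the 10 genes are given as a description, with no test. SAMP8 mice, which carry an AKR/J background and age early, received vehicle (corn oil, control, n = 11) or thymol, a terpenoid of thyme and oregano, given at a daily dose of 20 mg per kg (n = 14). Treatment began at 8 months of age and lasted 3 months, and each mouse gave 1 library. Neither m6A itself nor any protein was measured.

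m6A is placed on adenosines of nascent messenger RNA by a nuclear complex whose catalytic core is a heterodimer of METTL3, the methyltransferase, and METTL14, which holds the RNA. WTAP anchors this core in nuclear speckles, and VIRMA is the large scaffold that directs methylation towards the end of the transcript. FTO and ALKBH5 are iron-dependent dioxygenases that take the methyl group off again, FTO also acting on the related mark at the cap. The YTH proteins bind the mark: YTHDF1, YTHDF2 and YTHDF3 act on translation and decay in the cytoplasm, and YTHDC1 acts on splicing and export in the nucleus. In skeletal muscle, the METTL3 and METTL14 pair is known from studies of myogenic precursors and of muscle growth.

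Mettl3 and Alkbh5 mark the ends of the range of levels described below, so their promoter windows are shown, each running from 250 bases before to 50 bases after the start of the gene in RefSeq on GRCm38.p6. Such a window was at hand for 7 of the 10 genes, and those of Mettl14, Virma and Ythdf3 are not shown. Capitals mark matches on either strand to the cores of the motifs bound by ETS factors (CCGGAAG), YY1 (ATGGCGG) and Sp1 (GGGCGG) and to the E-box (CACGTG). Mettl3 lies on the minus strand and its window is chr14:52305075-52305374. Alkbh5 lies on the plus strand and its window is chr11:60537433-60537732. The whole genes span chr14:52294841-52305128 for Mettl3 and chr11:60536381-60558512 for Alkbh5 in GENCODE M21 on GRCm38, and Mettl14, the partner of Mettl3, spans chr3:123368297-123386108 on the minus strand. The Alkbh5 window thus lies inside its GENCODE span, downstream of the gene start given there.
Mettl3: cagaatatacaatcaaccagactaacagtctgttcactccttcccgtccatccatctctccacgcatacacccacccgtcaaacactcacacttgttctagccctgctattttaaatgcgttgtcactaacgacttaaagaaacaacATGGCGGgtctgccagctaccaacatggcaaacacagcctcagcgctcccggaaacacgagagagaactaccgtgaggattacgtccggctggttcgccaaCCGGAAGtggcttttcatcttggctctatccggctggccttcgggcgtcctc
Alkbh5: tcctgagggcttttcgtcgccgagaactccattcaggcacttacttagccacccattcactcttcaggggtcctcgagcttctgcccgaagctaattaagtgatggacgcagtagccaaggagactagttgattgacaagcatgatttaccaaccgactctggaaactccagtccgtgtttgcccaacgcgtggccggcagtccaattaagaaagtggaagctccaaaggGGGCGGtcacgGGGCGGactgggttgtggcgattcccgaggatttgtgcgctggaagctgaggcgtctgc
The Mettl3 window held 1 ETS core, beginning 2 bases before the start, and 1 YY1 core, beginning 103 bases before it. The ETS core was present in 8.86% and the YY1 core in 4.05% of all 32851 windows of 300 bases. The Alkbh5 window held 2 Sp1 boxes and no match to the other 3 motifs, and 35.7% of all windows held at least 1 Sp1 box. Of the other genes with a window, only Ythdf1 held a YY1 core, none held an ETS core, and no window of any of the 7 genes held a TATA box (TATAAA), which 13.6% of all windows did. These matches describe letters and were not tested as binding sites.

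Libraries were made from the 3′ ends of polyadenylated RNA, so that a transcript gives about 1 read whatever its length, and levels are compared between genes without division by length. A level here is log2 CPM as deposited, CPM being the reads of a gene scaled to a common library size. Reads on the 8829 genes numbered 4463818 to 9463418 per mouse. Mean log2 depth was 0.09 higher with thymol, which was within the spread between mice (two-sided permutation test, p = 0.317). The median depth went the other way, at 7479077 reads in thymol and 7554333 in control mice. Control mouse 18, control mouse 19 and thymol mouse 20 stood farthest from the other mice on the leading principal components of all genes, and the differences of the members without these 3 are given after the readers. Across all genes, limma with Benjamini-Hochberg adjustment called 0 of 8829 genes (0.0%) at an adjusted p under 0.05, with a smallest adjusted p of 0.741. At an unadjusted p under 0.05 it called 162 genes (1.83%) higher and 150 genes (1.7%) lower with thymol, and limma-voom on the recovered reads also called 0 after adjustment and 304 before it. The libraries carried the RNA of whole muscle, in which fewer cells of a type and less RNA per cell cannot be told apart.

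Within the 10 genes, transcripts of the erasers and readers were more abundant than those of the writers. Averaged over the 25 mice, Alkbh5 stood highest at 6.66 log2 CPM, followed by Ythdf3 at 6.22, Fto at 5.52, Ythdc1 at 5.10, Ythdf1 at 5.04 and Ythdf2 at 4.70. The writers of this group came below each of its erasers and readers, with Virma at 3.84, Mettl14 at 3.69, Wtap at 2.83 and Mettl3, the catalytic subunit, lowest at 2.07. The mean of Mettl3 lay at the 2.4th percentile of all 8829 genes and that of Alkbh5 at the 89.9th. Genes with few reads had been removed beforehand, so these percentiles hold among the kept genes only. Of the 9 neighbouring pairs in this order, 7 differed beyond the spread between mice (two-sided sign-flip permutation test on the differences within each mouse, adjusted p of 5.14e-05 or less, where 1e-05 is the smallest unadjusted p that 100000 permutations can give). The Wtap level exceeded the Mettl3 level in 22 of 25 mice, and Alkbh5 exceeded Ythdf3 in 24 of 25. The readers Ythdc1 and Ythdf1 did not differ beyond their spread (difference 0.06 ± 0.30, SD, n = 25, adjusted p = 0.358, permutation test), nor did the writers Virma and Mettl14 (0.15 ± 0.37, SD, n = 25, adjusted p = 0.0641, permutation test), although the latter pair passed the threshold in 7 of the fits that left out 1 mouse (control mice 1, 10 and 23 and thymol mice 3, 9, 22 and 24).

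**Figure D1:**
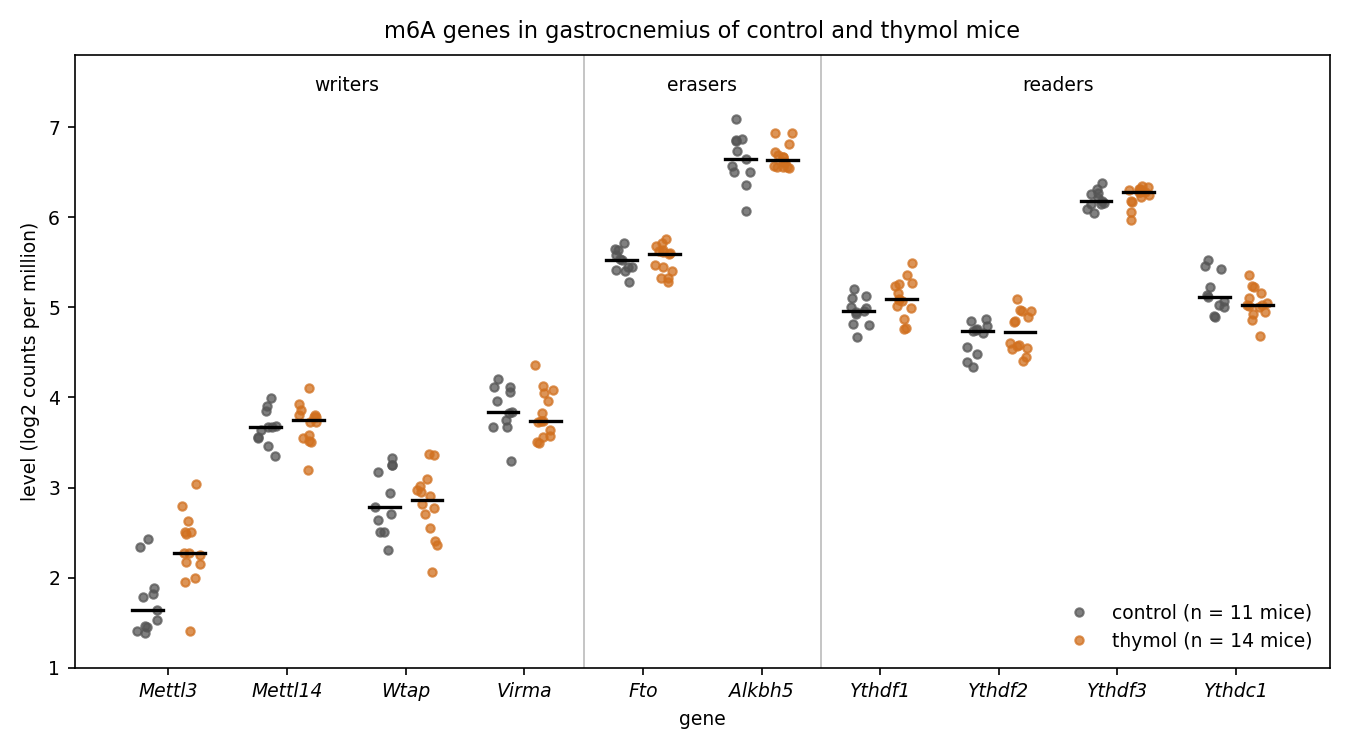
Level of each gene (log2 CPM, vertical axis) in each mouse, with control mice in grey (n = 11), thymol mice in orange (n = 14) and a black bar at each group's median. Mettl3 is the lowest of the 10 genes and the one whose medians lie farthest apart, at 1.65 in control and 2.28 in thymol mice, and its groups still overlap.

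On the linear scale, the sum of the 10 genes' CPM was divided unevenly between the roles. Readers took a median of 47.3% of it (range 43.4% to 52.1% over the 25 mice), erasers 41.4% (36.6% to 47.3%) and writers 10.9% (9.27% to 13.01%). Alkbh5 alone took a median of 28.2% and Ythdf3 21.04%, against 1.25% for Mettl3. Median writer shares were 10.9% in control and 11.05% in thymol mice. Median eraser shares were 42.8% in control and 41.2% in thymol mice, and median reader shares 46.7% and 47.8%, all with overlapping ranges.

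Mettl3 was the member with the largest difference between the groups. In control mice it ranged from 1.39 to 2.43 log2 CPM with a median of 1.65, and in thymol mice from 1.41 to 3.04 with a median of 2.28. Of the 14 thymol mice, 13 lay above the control median and 6 above every control mouse, while control mice 14 and 35 lay above the thymol median and thymol mouse 21 lay among the lowest controls, so the groups overlapped. The control mean was 1.74 ± 0.36 (SD, n = 11) and the thymol mean 2.32 ± 0.40 (SD, n = 14), a difference of 0.58 with a standard error of 0.16, or 1.49-fold. This was the 7th highest difference of the 8829 genes and the 16th in absolute size, which is what the choice of the gene rests on. The values stand on few reads, 11 to 42 per control mouse (median 22) and 19 to 59 per thymol mouse (median 35.5). The paper describes a filter on reads that a gene had to pass in 6 or more samples. Across the kept genes, the 6th highest read count of a gene was never below 32. Only control mice 14 (37 reads) and 35 (42 reads) reached 32 Mettl3 reads, so keeping the gene rested mainly on thymol mice. Whether the filter affects the difference and its rank was not tested. Leaving out 1 mouse at a time gave differences from 0.52 without thymol mouse 7, the highest mouse, to 0.65 without thymol mouse 21, the lowest thymol mouse. With the levels of 4 marker lists as covariates the difference was 0.63.

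The other writers were nearly level between the groups. Mettl14, the partner of Mettl3, ranged from 3.35 to 3.99 log2 CPM in control mice (median 3.67) and from 3.20 to 4.11 in thymol mice (median 3.75). Its mean difference was 0.04 with a standard error of 0.09, and its groups overlapped almost entirely. Wtap ranged from 2.31 to 3.32 in control mice (median 2.78) and from 2.06 to 3.38 in thymol mice (median 2.86), with a mean difference of -0.04 (standard error 0.15). Virma ranged from 3.30 to 4.20 in control mice (median 3.84) and from 3.49 to 4.36 in thymol mice (median 3.74), with a mean difference of -0.05 (standard error 0.11). For Wtap, 14.5% of the 31-base words in the last 500 bases of its coding transcripts also occur in other annotated genes. For Ythdf2 the share was 8.67%. The gene sharing the most words was Gm14292 for Wtap and Gm8401 for Ythdf2. Reads from those bases cannot be assigned with certainty.

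Relative to its partners, Mettl3 also stood higher in thymol mice. The Mettl3 level minus the Mettl14 level within each mouse had a median of -1.90 (range -2.54 to -1.24) in control and -1.49 (range -2.37 to -0.16) in thymol mice, and 13 of 14 thymol mice lay above the control median. Relative to Virma, the median was -2.28 in control and -1.46 in thymol mice, with 7 of 14 thymol mice above every control. Relative to Wtap, it was -1.10 in control and -0.52 in thymol mice, with 4 of 14 above every control. Thymol mouse 7 held the highest Mettl3 level together with the lowest thymol levels of Mettl14 and Wtap, and was the mouse in which Mettl3 stood nearest to Mettl14. These differences in balance rest on the same contrast by which Mettl3 was selected.

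Both erasers had nearly equal means in the groups. Fto ranged from 5.28 to 5.71 log2 CPM in control mice (median 5.52) and from 5.28 to 5.75 in thymol mice (median 5.59), with a mean difference of 0.02 (standard error 0.06). Alkbh5 ranged from 6.07 to 7.09 in control mice (median 6.65) and from 6.55 to 6.93 in thymol mice (median 6.64), with a mean difference of 0.04 (standard error 0.08). Its levels were closer together in thymol mice (SD 0.13, n = 14) than in control mice (SD 0.28, n = 11), since 4 control mice lay below and 1 above every thymol mouse. This difference in spread was not tested.

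Among the readers, Ythdf1 was the most shifted. It ranged from 4.67 to 5.21 log2 CPM in control mice (median 4.96) and from 4.76 to 5.49 in thymol mice (median 5.09), with 11 of 14 thymol mice above the control median and 5 above every control. Its mean difference was 0.14 with a standard error of 0.08. Ythdf2, the reader best known for messenger RNA decay, ranged from 4.34 to 4.87 in control mice (median 4.74) and from 4.40 to 5.09 in thymol mice (median 4.72), with a mean difference of 0.07 (standard error 0.09). Ythdf3 ranged from 6.04 to 6.38 in control mice (median 6.18) and from 5.97 to 6.35 in thymol mice (median 6.28), with a mean difference of 0.03 (standard error 0.05). The nuclear reader Ythdc1 had a lower mean with thymol. It ranged from 4.89 to 5.52 in control mice (median 5.11) and from 4.68 to 5.35 in thymol mice (median 5.03), with a mean difference of -0.12 (standard error 0.08), and 3 control mice (18, 19 and 27) lay above every thymol mouse. Without control mice 18 and 19 and thymol mouse 20, the mice that stood apart, the Ythdc1 difference was -0.04 (standard error 0.08). On the same 22 mice the differences of the writers were 0.60 for Mettl3, 0.01 for Mettl14, -0.12 for Wtap and 0.02 for Virma. Those of the erasers were 0.06 for Fto and -0.01 for Alkbh5, and those of the other readers 0.14 for Ythdf1, 0.02 for Ythdf2 and 0.02 for Ythdf3. Mettl3 and Ythdf1 thus kept their size, and the signs of Virma and Alkbh5 changed. In all, 7 of the 10 genes had a higher mean with thymol, where 49.6% of all genes did, and since the rule used this contrast nothing is read from that count.

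**Figure D2:**
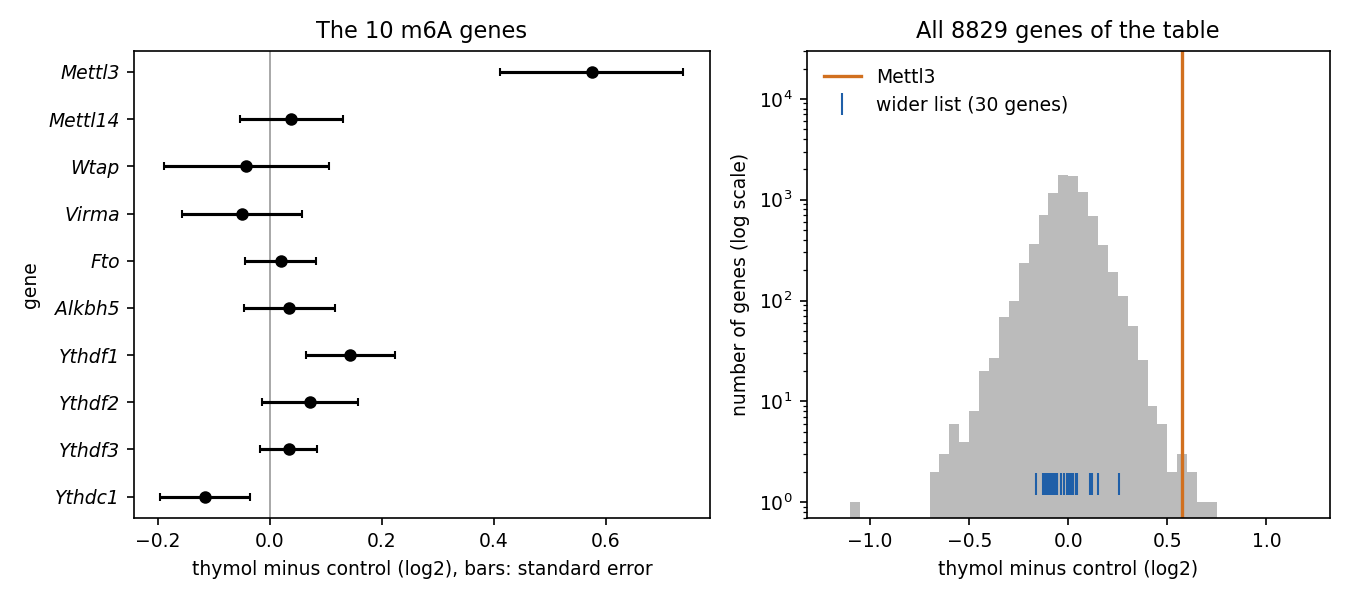
Left, mean thymol minus control level of each of the 10 genes (log2, horizontal axis) with bars of 1 standard error. Right, the same difference for all 8829 genes as a histogram (number of genes on a log scale), with Mettl3 as an orange line at 0.58 and the 30 genes of the wider m6A list as blue ticks, all at or below 0.25.

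A wider list of the pathway, chosen by role, held 35 further genes, of which 30 were in the table and are described here. It covers the rest of the writer complex, other RNA methyltransferases, other readers, partners of the readers and the supply of the methyl donor. Of its 30 genes, 12 had a higher and 18 a lower mean with thymol, and the median difference was -0.03, against 0.00 over all genes. limma called 0 of the 30 at an adjusted p under 0.05 and 0 at an unadjusted p under 0.05, where 1.83% of all genes passed the latter as higher and 1.7% as lower. The smallest p among the higher genes belonged to Rida, a protein that bridges YTHDF2 to an RNase (2.45 ± 0.38 in control and 2.70 ± 0.34 in thymol mice, SD, difference 0.25, standard error 0.15, unadjusted p = 0.0962 by limma). It was followed by Mat2b, a subunit of the enzyme that makes the methyl donor (difference 0.11, unadjusted p = 0.151 by limma), and Cnot1, the scaffold of the deadenylase that YTHDF2 recruits (difference 0.15, unadjusted p = 0.187 by limma). Among the lower genes these were the reader Prrc2a (difference -0.12, unadjusted p = 0.0961 by limma), Ahcyl1, a relative of the enzyme that clears the spent donor (difference -0.13, unadjusted p = 0.132 by limma), and the RNA-binding protein gene Fmr1 (difference -0.16, unadjusted p = 0.141 by limma). The adjusted p of each of these 6 genes was 0.9999. The other subunits of the writer complex gave differences of -0.04 for Zc3h13, -0.02 for Cbll1, 0.04 for Rbm15 and 0.12 for Rbm15b, none past the threshold.

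The 3′ end of Mettl3 overlaps that of another gene, which bears on reads taken from 3′ ends. Mettl3 (chr14:52294841-52305128 on GRCm38, minus strand) and Tox4 (chr14:52279146-52296401, plus strand), a subunit of a phosphatase complex, are transcribed towards each other and overlap by 1561 bases, of which 933 are exonic in both. Of the last 500 bases of Mettl3, 253 fall in Tox4 exons. The strand setting used for counting is not given in the sources used here. Reads from the shared exonic bases could thus have been left uncounted or counted for the other gene. Tox4 was more abundant than Mettl3, ranging from 4.19 to 4.71 log2 CPM in control mice (median 4.37) and from 4.08 to 4.995 in thymol mice (median 4.44). Its mean difference was 0.07 with a standard error of 0.09, against 0.58 for Mettl3, and the Pearson correlation of the 2 genes over the 25 mice with group means removed was -0.14. The part of the overlap in the Mettl3 values was not tested further. None of the other 9 genes shares exonic bases with another annotated gene in the 500 genomic bases at the 3′ end of the gene. Ends of shorter transcripts were not checked. Outside that stretch, Ythdc1 shares 631 exonic bases with Gm43055 on the same strand. Fto shares 304 and 144 with genes on the opposite strand.

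The spread of the 10 genes between mice was compared with the spread that read counting alone would give. With group means removed, Mettl3 had an SD of 0.38 between mice, of which counting alone gives 0.26, a ratio of 1.48, and Mettl14 had the smallest ratio at 1.41 (0.21 against 0.15). The median ratio over all genes was 2.11, so that counting makes up more of the spread in this pair than in the median gene. After removal of the counting part, the spread of Mettl3 lay at the 64.2th percentile of all genes. That of Mettl14 lay at the 15.4th and that of Wtap at the 70.1th. Alkbh5 was at the other end, with an SD of 0.21 where counting gives 0.05, a ratio of 3.96. This ratio goes with its many reads, since after removal of the counting part its spread lay at the 39.4th percentile of all genes. Ythdf3 was among the most even genes of the muscle: its SD was 0.11, and after removal of the counting part its spread lay at the 0.94th percentile of all genes. Fto also varied little, with an SD of 0.14 and the 6.37th percentile.

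**Figure D3:**
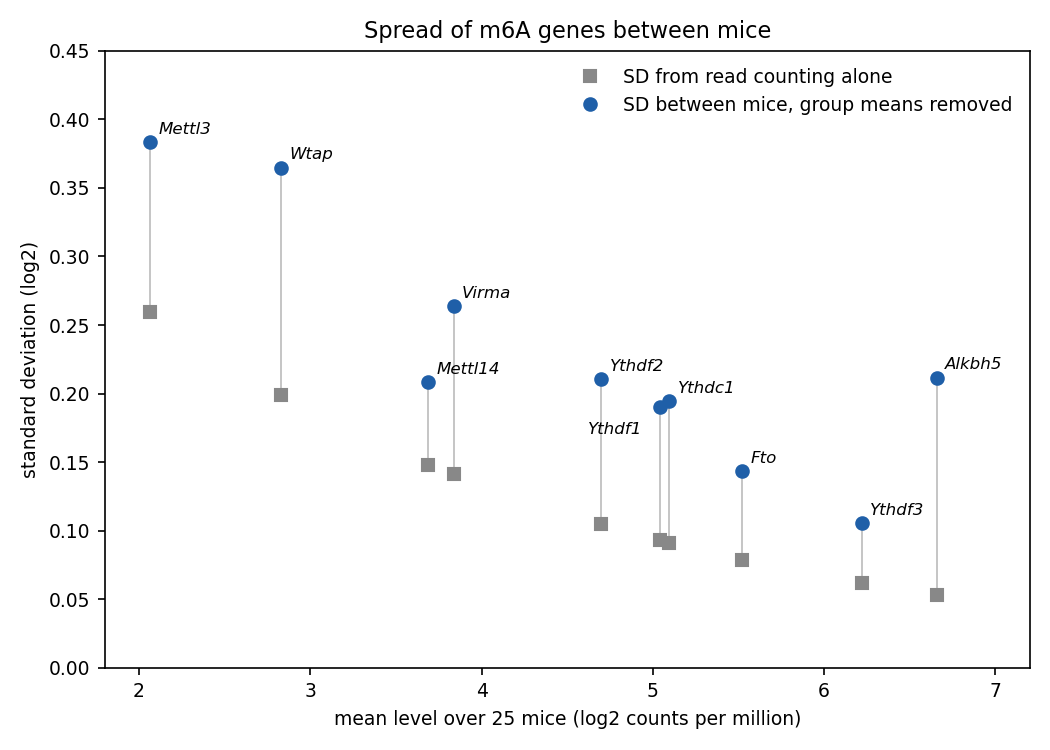
SD between the 25 mice with group means removed (blue circles) and SD from read counting alone (grey squares), both in log2 units on the vertical axis, against the mean level of each of the 10 genes (log2 CPM, horizontal axis). The gap between circle and square is widest for Alkbh5 relative to counting, and Ythdf3 has the lowest circle at 0.11.

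Co-variation between mice was measured on deviations from the group means, which do not contain the difference that chose Mettl3. Of the 45 pairs of members, 0 passed an adjusted p of 0.05 (two-sided permutation test within groups, Benjamini-Hochberg over 45 pairs, smallest adjusted p 0.461), and 4 passed an unadjusted p of 0.05. An absolute Pearson r at least as large as in those 4 pairs (0.42) occurred in 6.15% of all 38971206 gene pairs of the table. The median absolute r of the 45 pairs was 0.14, against 0.16 over all gene pairs, and 20 of the 45 were positive, where 49.8% of all gene pairs were. Mettl3 and Mettl14, whose proteins form 1 enzyme, gave r = -0.21 (95% interval -0.56 to 0.22, rho = -0.06, permutation p = 0.337, adjusted p = 0.949), with r = 0.04 without thymol mice 7 and 21 and 0.01 without thymol mouse 7 alone. Mettl3 gave r = -0.04 with Wtap (95% interval -0.44 to 0.37) and r = -0.01 with Virma (-0.41 to 0.40). No pair of writers passed an unadjusted p of 0.05. Counting error is a large part of the spread of Mettl3 and Mettl14, which limits the r that these genes can reach.

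Of the 4 pairs past an unadjusted p of 0.05, none passed after adjustment. Fto and Ythdf3 gave r = -0.51 (permutation p = 0.0102, adjusted p = 0.461) and rho = -0.56 (permutation p = 0.00489, adjusted p = 0.22), and r = -0.38 without control mouse 14 and thymol mouse 26. It was negative in both groups, at -0.62 in control and -0.46 in thymol mice. Wtap and Ythdc1 gave r = -0.46 (permutation p = 0.024, adjusted p = 0.509) and rho = -0.49, and r = -0.43 without thymol mice 3 and 7. Ythdf1 and Ythdf3, which share targets, gave r = 0.43 (permutation p = 0.0365, adjusted p = 0.509) and rho = 0.32, and r = 0.29 without thymol mice 21 and 30. Mettl3 and Ythdf3 gave r = 0.42 (permutation p = 0.0453, adjusted p = 0.509) but rho = 0.18, and r = 0.18 without thymol mice 7 and 21. Without thymol mouse 21 alone r was 0.19 and without thymol mouse 7 alone it was 0.42, so that the relation rests on thymol mouse 21. Without the 3 mice that stood apart it was 0.51.

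**Figure D4:**
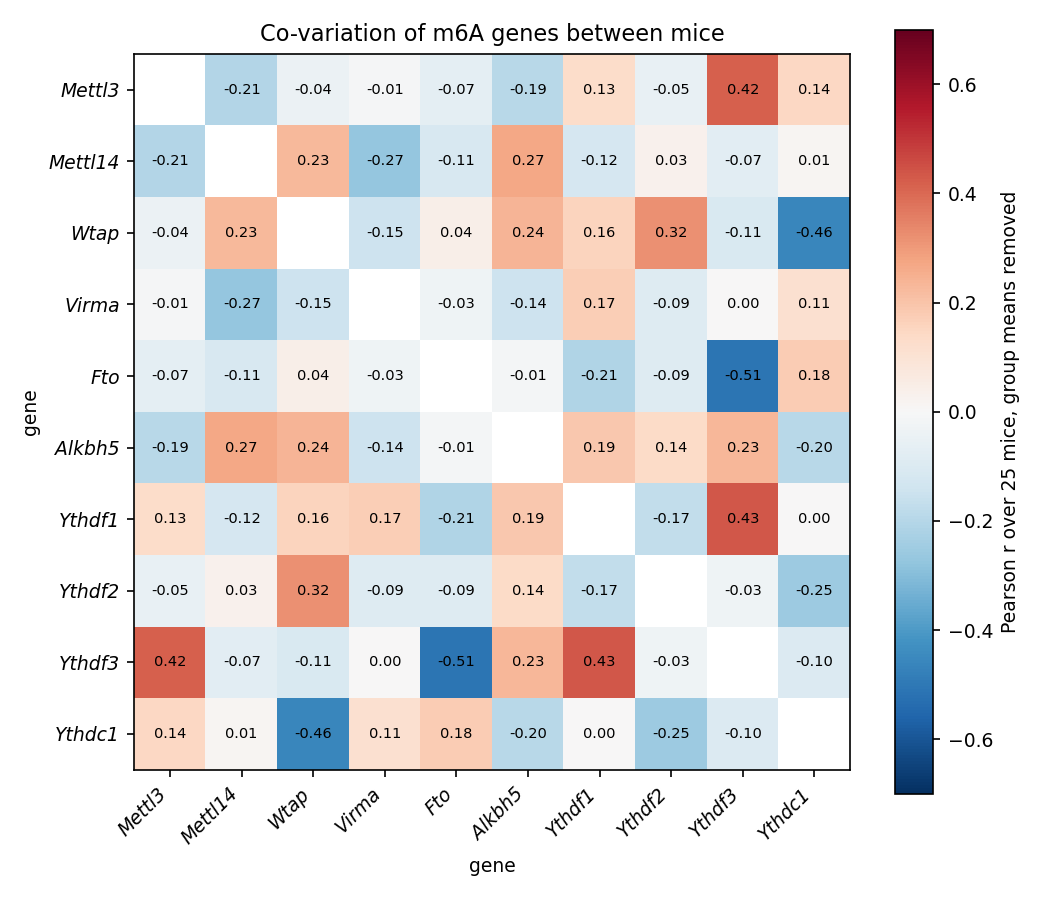
Pearson r between each pair of the 10 genes over 25 mice with group means removed, on a colour scale from blue (negative) to red (positive), with the value printed in each cell. The strongest cells are Fto with Ythdf3 at -0.51 and Wtap with Ythdc1 at -0.46, and the Mettl3 row is pale except for Ythdf3 at 0.42.

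The genes of the table whose deviations were most like those of Mettl3 were from other pathways. They were Acot7, an acyl-CoA thioesterase (r = 0.66), Cd59a, an inhibitor of complement (r = 0.64), Abhd5, a co-activator of triglyceride lipolysis (r = 0.64), Cdk5rap1, a mitochondrial tRNA-modifying enzyme (r = 0.62), and Vps37b, a subunit of an endosomal sorting complex (r = 0.62). Without the 3 mice that stood apart these values were 0.66, 0.67, 0.72, 0.72 and 0.61. For the other writers the highest r was with Dmxl1 for Mettl14 (0.61), Yae1d1 for Wtap (0.69) and Smc3, a subunit of cohesin, for Virma (0.67). For the erasers it was with Washc2 for Fto (0.69) and Oxsr1, a kinase of ion transport, for Alkbh5 (0.84, or 0.74 without the 3 mice). For the readers it was with Ube2g2 for Ythdf1 (0.72), Dcxr for Ythdf2 (0.73), Sdhc, a subunit of succinate dehydrogenase, for Ythdf3 (0.72) and Ephx1 for Ythdc1 (0.73). Each is the highest of 8828 values over the same 25 libraries and is given as a description.

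Alkbh5 co-varied with more of the muscle transcriptome than most genes did. Its absolute r reached 0.42 with 1320 genes (14.95%), 654 of them positive and 666 negative, where the median gene reached it with 5.48% of genes, which placed Alkbh5 at the 99.5th percentile. Without control mouse 18, in which Alkbh5 was lowest, the share was 11.1% and the percentile 96.1, and without the 3 mice that stood apart they were 14.7% and 98.5. Of the other members, Ythdf3 (8.62%), Ythdc1 (7.57%) and Fto (5.78%) lay above the median gene, and Mettl3 (4.50%), Mettl14 (3.27%) and the remaining 4 lay below it.

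Lists of cell type markers gave the tissue context of these deviations. The fast fibre list stood highest, at a mean of 13.2 log2 CPM in both groups, above the slow fibre list at 8.13 in control and 7.88 in thymol mice. The slow fibre mean of thymol mice includes thymol mouse 20 at 2.87, where the next lowest, thymol mouse 3, stood at 6.07. Of 8 lists, 0 passed the test between the groups (two-sided permutation test, smallest adjusted p = 0.718 over 8 lists). The satellite cell list had only 1 of its 4 genes in the table, so its level is that of a single gene. With group means removed, Alkbh5 gave a positive r with the fast fibre list (8 of 8 genes in the table, r = 0.59, n = 25) and a negative r with the fibroblast list (7 of 7 genes, r = -0.66), the leukocyte list (8 of 11 genes, r = -0.54) and the endothelial list (9 of 9 genes, r = -0.51). These values are a description, with no test. Without control mouse 18, which had the highest fibroblast level, they were 0.58, -0.47, -0.33 and -0.60. For the fibroblast list, r was -0.84 in control mice (n = 11) and -0.28 in thymol mice (n = 14), a difference that was not tested. Ythdc1 gave its highest r with the adipocyte list (6 of 7 genes, r = 0.55, or 0.51 without the 3 mice that stood apart), and Mettl14 gave r = -0.47 with the same list. For Mettl3 the largest of the 8 values was 0.34, with the endothelial list. The endothelial list ranged from 4.27 to 4.90 log2 CPM in control and from 4.29 to 4.76 in thymol mice and was 0.08 lower with thymol, and its part in the Mettl3 difference was not tested on its own.

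**Figure D5:**
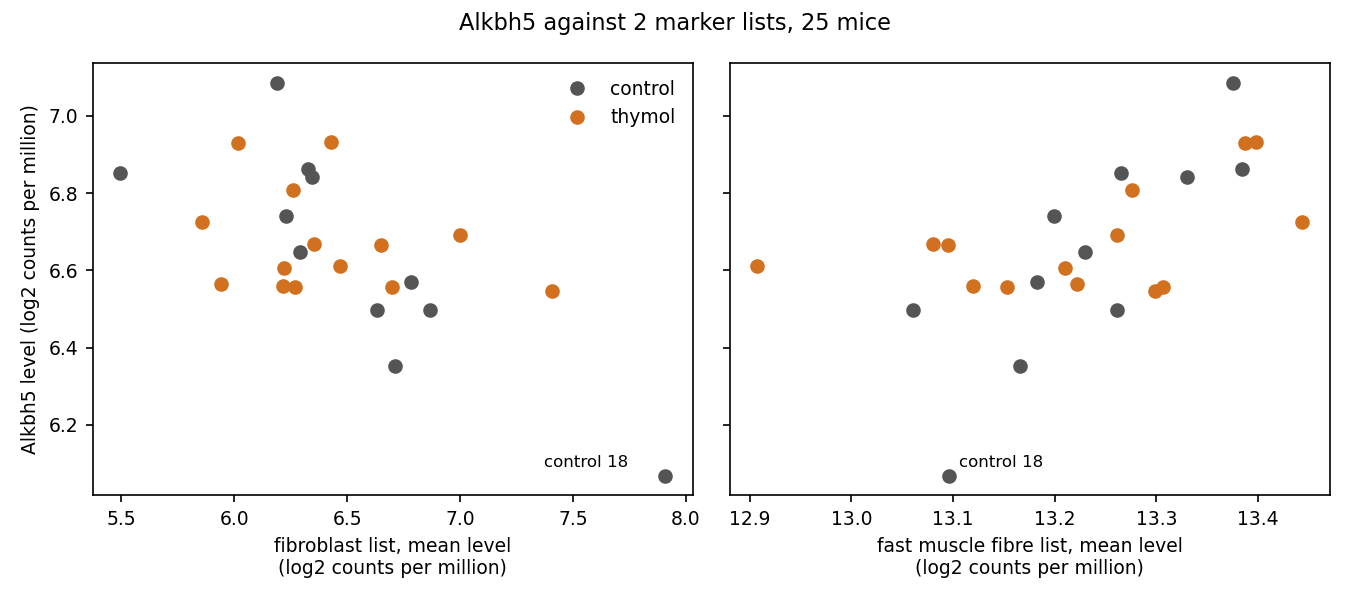
Alkbh5 level (log2 CPM, vertical axes) against the mean level of the fibroblast list (left) and the fast muscle fibre list (right, both log2 CPM) in each of 25 mice, with control mice in grey and thymol mice in orange. With group means removed, r is -0.66 on the left and 0.59 on the right, and control mouse 18 lies at the far end of the left panel.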

How the data were processed

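Gastrocnemius RNA of 25 mice was read by QuantSeq 3′ mRNA sequencing. The authors mapped reads to GRCm38 with STAR 2.5.3, counted them with HTSeq 0.6.1, removed genes with few reads, applied TMM scaling and deposited log2 CPM values for 8829 genes, which were used as deposited. The values lie on whole reads (100% within 0.01 of a read), so reads and depth (median 7503259) could be recovered, and the counting SDs cover counting error only, while the interval of r covers sampling of mice. Groups followed the treatment in the labels, and mice carry the last number of their label. The 10 genes, the wider list, the marker lists and the tests were chosen with earlier results of these data known.

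All genes were fitted with limma 3.58.1 in R 4.3.3 (treatment as the only term, trended moderation, two-sided, Benjamini-Hochberg adjustment, threshold 0.05). The study's own test was on counts, for which limma stands in here. Pairs and neighbouring levels were tested with 100000 permutations within groups or sign flips (numpy 2.4.6). Procedures were tested on simulated data. Positions, overlaps and shared words are from GENCODE M21, and promoter windows from RefSeq. Named genes were all 10 members, the 3 smallest p in each direction of the wider list, genes overlapping a member, and the genes with the highest r (5 for Mettl3, 1 for each other member). Zc3h13, Cbll1, Rbm15 and Rbm15b were named outside this rule as the other writer subunits of the list. Alternatives were quantile normalization, median centring, a filter to the 75% most abundant genes, the label's first number as a block, adjustment for library number, voom on recovered reads, Spearman's rho, each group alone for the order of levels, and each mouse left out in turn. Leaving out the 3 mice that stood apart and using marker lists as covariates were chosen after seeing the data.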

Additional observations from a re-analysis of the deposited data

How the results depend on the processing

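The thymol minus control difference of Mettl3 stayed between 0.52 and 0.71 on the log2 scale over 32 alternatives, the upper value with the label's first number as a block. The filter to the 75% most abundant genes removed Mettl3 and Wtap. The small differences of Alkbh5, Fto, Virma and Wtap changed sign in 4, 2, 1 and 3 alternatives, and the number of members with a higher mean ranged from 5 to 8. No pair of members, gene of the wider list, marker list or gene of the table passed an adjusted p of 0.05 under any alternative run for it, with limma for the genes and permutation tests for the pairs and lists, and over all genes the smallest adjusted p of any alternative was 0.109, without thymol mouse 16. The order of levels was the same in every alternative except in thymol mice alone, where Ythdf1 stood above Ythdc1, and 7 or 8 of 9 neighbours differed. This first number was shared by mice of both groups for 7 numbers, and the 9 pairs of mice sharing a number across groups correlated at a mean of 0.00, as did other pairs. The replicate block left 8 residual degrees of freedom of 23, gave Fto and Ythdf3 r = -0.67 and Mettl3 and Mettl14 r = 0.06, and called 0 pairs. Levels of 11 to 59 reads limit what can be said of Mettl3 in any single mouse.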
